A study of Mus musculus with 6 samples.

Results

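Cytochrome P450 enzymes of families 1 to 4 were followed in SOX9-positive cells of the embryonic mouse liver. Members were the protein-coding genes whose symbol begins with Cyp1, Cyp2, Cyp3 or Cyp4 followed by a subfamily letter and a gene number. They numbered 80 of the 52550 genes in the table, with 3 genes in family 1, 48 in family 2, 9 in family 3 and 20 in family 4. RNA sequencing had been done on 6 libraries, 3 from E16.5 and 3 from E18.5 livers (replicates A, B and C at each stage; the sample labels round the stages to embryonic day 16 and day 18). All libraries came from CD-1 mice carrying the Sox9-GFP reporter, in which GFP marks cells expressing the biliary transcription factor SOX9, and each library pooled the livers of 15 embryos. Cells of the blood lineages were depleted on antibody-coupled magnetic beads and GFP-positive cells were then sorted, with no treatment at either stage.

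Cytochrome P450s are haem-containing monooxygenases, most of them anchored in the endoplasmic reticulum, that insert an oxygen atom from molecular oxygen into a lipophilic substrate with electrons passed on by P450 reductase. Family 1 is controlled by the aryl hydrocarbon receptor and oxidises planar aromatic compounds, subfamilies Cyp2a to Cyp2e and Cyp3a oxidise drugs and steroids in hepatocytes, Cyp2c and Cyp2j members also form epoxides from arachidonic acid, and family 4 hydroxylates the end of fatty acid and eicosanoid chains. Many of them are first expressed, or are exchanged for a related gene, around birth.

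From the deposited TPM (a share of all transcripts, corrected for transcript length), 13169587 to 26296536 reads assigned to genes were recovered in the 6 libraries. Genes whose TPM did not give whole reads are left out of these sums, which are therefore partial. The check covered genes of the same identifier version in GENCODE vM21, and all their TPM values above 0 were whole read numbers within a tolerance of 0.01 reads. E18.5 libraries were the shallower, at 13169587 to 22725477 reads against 23291479 to 26296536 at E16.5. Although the cells are labelled cholangiocytes, the 12 hepatoblast and hepatocyte marker genes summed to 180914 to 230089 TPM at E16.5 and 42003 to 103836 TPM at E18.5, and the 11 cholangiocyte markers summed to 793 to 2641 TPM at E16.5 and 8299 to 14192 TPM at E18.5. In the fit described below, the hepatoblast markers had a median log2 fold change of -1.24 (7 of 12 fell, none rose) and the cholangiocyte markers one of 1.59 (9 of 11 rose, none fell). Under median-of-ratios scaling and quantile normalization, the alternatives described below, 6 and 3 of the hepatoblast markers were lower and 4 and 5 of the cholangiocyte markers higher. Among markers of other cells, 8 of 8 megakaryocyte markers fell, with sums of 3293 to 9515 TPM at E16.5 and 95.4 to 757 TPM at E18.5. Of 8 pancreatic acinar markers 6 were tested and 2 fell (0 under median-of-ratios scaling and 1 under quantile normalization). The 8 together summed to 2490, 227 and 79.3 TPM in E16.5 replicates A, B and C and to 14.9 to 55.5 TPM at E18.5. All 5 mesothelial markers rose (21.7 to 130 TPM at E16.5 and 256 to 316 TPM at E18.5), but Krt19 among them also stands in the cholangiocyte list. Of 8 neutrophil markers 5 rose (17.4 to 46.4 TPM and 64.7 to 234 TPM), and none of the 8 was called under either alternative scaling. No marker of any of these lists was at 0 in every library. The part of these shifts in the results that follow was not tested. In such sorted bulk samples fewer cells of a type and less RNA per cell cannot be told apart, and nothing in the labels says more of the replicates than that they are separate libraries, so p-values measure the spread between these pools.

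The stages were compared by limma on log2(TPM + 1), over the 22452 genes whose mean level reached 1 TPM, and a gene was called where its Benjamini-Hochberg adjusted p over all of them was below 0.05. Of the 80 members, 49 passed the filter, and the other 31 had means of at most 0.93 TPM. Of the 49 tested members 16 were called, or 32.7%, against 31.2% of all genes tested. In the E18.5-higher direction 11 members were called (22.4%, against 26% of all genes), and in the E18.5-lower direction 5 (10.2%, against 5.22%). In this comparison the called share of the members was close to that of all genes in total, and above it in the lower direction. In the fit without E18.5 replicate B, 35.4% of the members tested were called against 13.1% of all genes, 31.2% against 9.46% in the higher direction. Without E18.5 replicate C the shares were 38.8% and 25.6%, and without E18.5 replicate A 11.8% and 6.57%. Without E16.5 replicate A they were 21.7% and 19.4%, without E16.5 replicate B 29.2% and 21.1%, and without E16.5 replicate C 16.7% and 18.0%. TPM did not overlap between the stages for 25 of the 49 members (51.0%), against 53.3% of all genes tested. The median log2 fold change of the 49 members was 0.24 and that of all genes 0.42. Because most genes lay above 0 on this scale, the comparison was repeated with median-of-ratios scaling, which brought the median of all genes to 0.02. Then 11 members were called (22.4%, against 17.2% of all genes), 6 of them higher (12.2%, against 6.81%) and 5 lower (10.2%, against 10.4%). On this scale the share of the members was above that of all genes in the higher direction and close to it in the lower. The difference by direction therefore depended on the scaling. The 5 members called lower were the same under both scalings, and the 6 called higher under median-of-ratios scaling, Cyp2c69, Cyp2j5, Cyp2j9, Cyp4f13, Cyp4f14 and Cyp4f17, were all among the 11 of the main comparison. Of the called members 6, named below, stayed past the threshold under every alternative in which they could be tested.

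**Figure D1:**
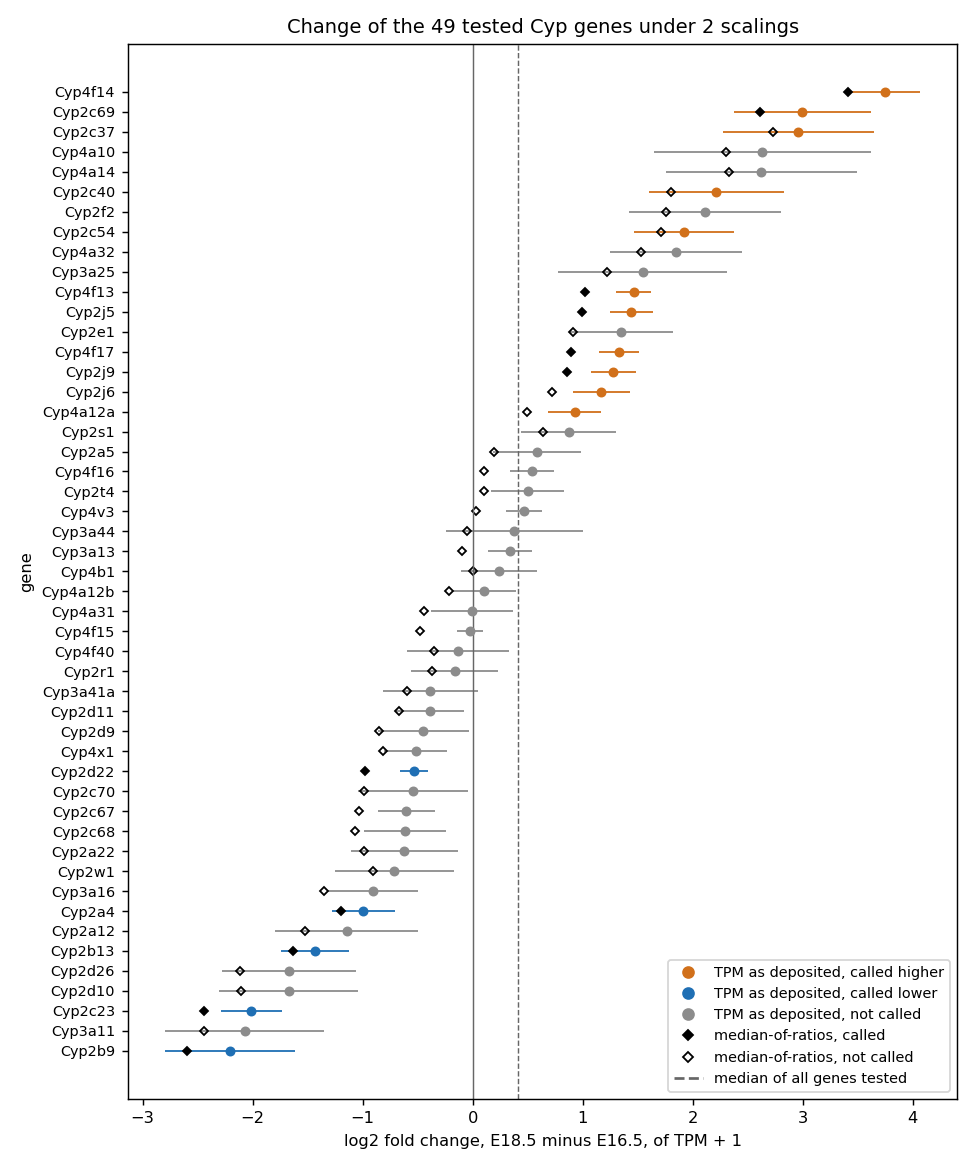
Change of each of the 49 tested Cyp genes. The horizontal axis is the log2 fold change of TPM + 1, E18.5 minus E16.5, and each row is a gene. Circles with bars are the estimate and its standard error on TPM as deposited (3 libraries a stage), coloured by call, and diamonds are the estimates after median-of-ratios scaling, filled where called. Cyp4f14 lies farthest to the right at 3.75 and Cyp2b9 farthest to the left at -2.20, and the dashed line marks the median of all genes at 0.42.

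Summed over all 80 members, the level was 1643, 1528 and 1872 TPM in the E16.5 libraries (replicates A, B and C, in this order throughout) and reached 1683, 1033 and 2237 TPM in the E18.5 libraries, so the stages overlapped in total, while the make-up of the total differed. Cyp2d26, of the drug-oxidising Cyp2d group, had the highest mean at E16.5, with 25.3%, 22.5% and 30.7% of the summed TPM in A, B and C. At E18.5 it held 9.23%, 4.85% and 14.4%. Cyp2j5, an arachidonic acid epoxygenase, had the highest mean at E18.5, with 15.01%, 17.8% and 8.09% of the sum, against 5.00%, 5.59% and 3.11% at E16.5.

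In family 1, Cyp1a1 and Cyp1a2 were at the edge of detection. Cyp1a1, the classical target of the aryl hydrocarbon receptor, had 3, 0 and 1 reads at E16.5 and 0, 4 and 5 reads at E18.5, at most 0.442 TPM. Cyp1a2, a main adult hepatocyte form, had 0, 3 and 3 reads at E16.5 and 0, 3 and 0 at E18.5. A count of 0 allows up to 3 reads, which for Cyp1a2 corresponds to 0.174 to 0.367 TPM across the libraries, so a difference between the stages was not detectable at this depth. Cyp1b1, the form found mainly outside hepatocytes, had 0.546, 0.375 and 0.416 TPM at E16.5 and 0.741, 1.49 and 1.30 TPM at E18.5, with a mean below the filter.

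In the subfamilies Cyp2a to Cyp2e, 20 of 33 genes were tested, with a median log2 fold change of -0.57. Among them 4 rose (20%, against 26% of all genes tested) and 5 fell (25%, against 5.22%). The sum of the 33 genes was 1067, 965 and 1319 TPM at E16.5 and 687, 304 and 1203 TPM at E18.5. In the Cyp2b subfamily, which includes targets of the xenobiotic receptor Nr1i3, both tested members fell. Cyp2b9 had 36.9, 24.3 and 42.8 TPM at E16.5 and 4.99, 2.61 and 18.9 TPM at E18.5. All E18.5 libraries were below all E16.5 libraries, with replicate C closest to them, and the log2 fold change was -2.20 ± 0.59 (SE, n = 3 a stage, limma adjusted p = 0.0319). The call was lost without E16.5 replicate A or C or E18.5 replicate A or B, with adjusted p between 0.0149 and 0.0923 over all 14 alternatives. Its neighbour Cyp2b13, named although it is below the abundance limit of the naming rule, had 2.74, 2.26 and 2.67 TPM at E16.5 and 0.624, 0 and 0.394 TPM at E18.5 (log2 fold change -1.43 ± 0.31, limma adjusted p = 0.0185), and its call was lost without E16.5 replicate A or C or E18.5 replicate A. These levels rest on 33 to 44 reads a library at E16.5 and 0 to 8 reads at E18.5. Cyp2b10, the best known target of Nr1i3, had a mean under 1 TPM over the 6 libraries, with 1.49, 0.971 and 1.54 TPM at E16.5 and 0.415, 0.556 and 0.466 TPM at E18.5.

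The genes of the Cyp2a and Cyp2b subfamilies share a cluster on chromosome 7 (GRCm38 chr7:25802475-27158668, 13 members with Cyp2f2, Cyp2g1, Cyp2s1 and Cyp2t4). In it 9 were tested, 3 fell (33.3%, against 5.22% of all genes) and none rose (against 26%). The promoters of Cyp2b9 and Cyp2b13 are shown because these genes fell together and their windows were 99.3% identical. Each runs from 250 bases before to 50 after the RefSeq start site (GRCm38.p6, both on the plus strand, chr7:26061245-26061544 for Cyp2b13 and chr7:26173159-26173458 for Cyp2b9), and capitals mark the 2 bases at which they differ.
Cyp2b13: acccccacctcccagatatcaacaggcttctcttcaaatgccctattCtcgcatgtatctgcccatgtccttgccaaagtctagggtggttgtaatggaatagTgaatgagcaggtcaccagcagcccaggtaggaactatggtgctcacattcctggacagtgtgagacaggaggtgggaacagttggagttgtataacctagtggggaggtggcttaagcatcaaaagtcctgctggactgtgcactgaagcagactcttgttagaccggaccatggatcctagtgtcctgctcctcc
Cyp2b9: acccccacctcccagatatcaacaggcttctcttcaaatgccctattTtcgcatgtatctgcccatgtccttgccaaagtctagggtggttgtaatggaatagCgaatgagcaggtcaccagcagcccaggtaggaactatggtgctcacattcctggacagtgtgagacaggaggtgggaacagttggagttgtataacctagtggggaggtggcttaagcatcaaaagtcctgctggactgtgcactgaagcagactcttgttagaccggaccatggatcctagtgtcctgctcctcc
The level of Cyp2b9 was 13.5, 10.8 and 16.0 times that of Cyp2b13 in E16.5 replicates A, B and C. At E18.5 it was 7.996 times in A and 48.0 times in C, and Cyp2b13 had no read in B. The nearly equal windows therefore stood beside levels more than 10 times apart at E16.5. Of the Cyp2b13 transcript, 16.4% of all 75-base stretches also occur in another gene, 11.2% in the gene model Gm45225. Of the Cyp2b9 transcript, 5.16% also occur in Cyp2b13, so some reads of this pair could be split between them.

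The next pair of near-identical promoters, those of Cyp2a4 and Cyp2a5, belonged to genes whose levels moved apart. Cyp2a4, a steroid hydroxylase named here although outside the naming rule, had 1.61, 1.77 and 2.16 TPM at E16.5 and 0.505, 0.225 and 0.567 TPM at E18.5. It was below its E16.5 level in every E18.5 library (log2 fold change -0.995 ± 0.29, limma adjusted p = 0.0386). This call was lost in each of the 6 fits that left out 1 library, with adjusted p up to 0.0992 without E18.5 replicate B. Cyp2a5, a coumarin hydroxylase, had 4.16, 3.77 and 7.44 TPM at E16.5 and 10.1, 4.06 and 11.5 TPM at E18.5, with overlapping stages and no call (0.59 ± 0.40, limma adjusted p = 0.281). The promoters of this pair are 97.7% identical, with 5 substitutions and 1 base more at one end of each (chr7:26306942-26307241 and chr7:26835089-26835388, plus strand), and capitals again mark what differs.
Cyp2a4: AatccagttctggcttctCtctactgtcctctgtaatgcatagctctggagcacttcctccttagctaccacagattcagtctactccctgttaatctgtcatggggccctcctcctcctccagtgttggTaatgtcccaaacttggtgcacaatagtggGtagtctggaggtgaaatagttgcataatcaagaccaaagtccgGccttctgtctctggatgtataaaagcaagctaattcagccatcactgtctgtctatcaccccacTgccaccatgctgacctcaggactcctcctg
Cyp2a5: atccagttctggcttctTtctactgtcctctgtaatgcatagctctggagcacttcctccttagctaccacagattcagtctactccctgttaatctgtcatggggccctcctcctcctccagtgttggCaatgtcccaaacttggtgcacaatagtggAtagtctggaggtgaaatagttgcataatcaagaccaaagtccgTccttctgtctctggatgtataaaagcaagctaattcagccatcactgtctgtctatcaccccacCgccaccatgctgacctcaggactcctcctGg
The level of Cyp2a5 was 2.59, 2.13 and 3.44 times that of Cyp2a4 at E16.5 and 20.0, 18.0 and 20.3 times at E18.5, so the ratio was higher in every E18.5 library. The pair was chosen because a member was called, so its ratio is given without a test. Of the Cyp2a4 transcript, 22.1% of all 75-base windows also occur in another gene, mostly in Cyp2a5, so reads of this pair could be split between them. Cyp2a12, a steroid hydroxylase of the same cluster, had 10.8, 10.9 and 18.6 TPM at E16.5 and 3.76, 1.87 and 17.6 TPM at E18.5. Its E18.5 replicate C lay within the E16.5 range and it was not called (-1.15 ± 0.65, limma adjusted p = 0.202).

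**Figure D2:**
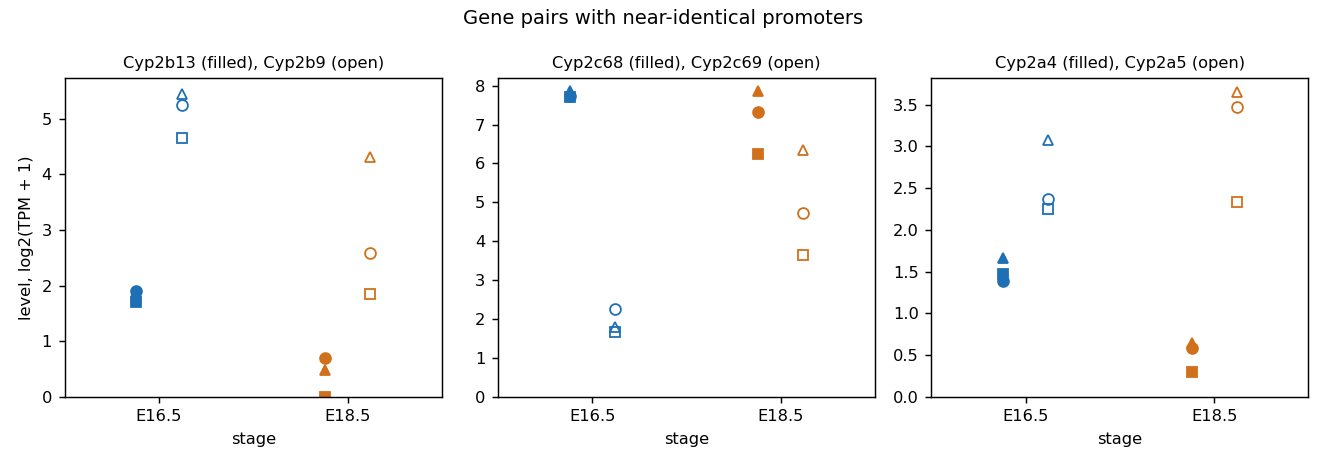
Levels of 3 gene pairs with promoters at least 90% identical and a called member. The vertical axis is log2(TPM + 1) in each library and the horizontal axis the stage, circles, squares and triangles are replicates A, B and C, and filled and open symbols are the first and the second gene of each panel title. Cyp2b13 and Cyp2b9 were both lower at E18.5, Cyp2c69 came up towards Cyp2c68, and Cyp2a4 moved away from Cyp2a5.

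The Cyp2c subfamily, whose members oxidise drugs and arachidonic acid, held 15 genes, of which 8 were tested. Within the subfamily 4 rose (50% of those tested, against 26% of all genes) and 1 fell (12.5%, against 5.22%). Its summed level was 383, 400 and 441 TPM at E16.5 and 334, 153 and 613 TPM at E18.5. In all, 14 of its genes lie together on chromosome 19 (chr19:39007019-40187333), with 7 tested, 4 risen (57.1%, against 26% of all genes) and none fallen. The gene that fell, Cyp2c23, an arachidonic acid epoxygenase, lies apart from them (chr19:44005022-44029208, minus strand). It had 54.0, 56.1 and 65.2 TPM at E16.5 and 17.4, 8.25 and 17.6 TPM at E18.5. The E18.5 libraries were well separated from the E16.5 libraries, at a log2 fold change of -2.01 ± 0.28 (limma adjusted p = 0.0089). It stayed called in all 14 alternatives, with adjusted p from 0.00481 to 0.0367, and none of its 75-base windows occurs in another gene.

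Cyp2c69 and Cyp2c40 rose nearly side by side. Cyp2c69 had 3.82, 2.17 and 2.48 TPM at E16.5 and 25.6, 11.5 and 80.0 TPM at E18.5, which was a log2 fold change of 2.99 ± 0.62 (limma adjusted p = 0.0172). Cyp2c40 had 5.04, 4.97 and 7.32 TPM at E16.5 and 28.4, 11.4 and 80.9 TPM at E18.5 (2.21 ± 0.62, limma adjusted p = 0.0352). Both were higher in every E18.5 library and varied about as widely among them as from stage to stage, with replicate C highest and B lowest. Shared sequence limits the reading of each gene alone, since 43.2% of the windows of Cyp2c69 and 57.1% of those of Cyp2c40 occur in other genes, most often in each other. Cyp2c40 was not called after median-of-ratios scaling (1.80, limma adjusted p = 0.124). Neither gene was called without E18.5 replicate A, and Cyp2c40 also lost its call without any 1 of the E16.5 libraries.

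Cyp2c37 and Cyp2c54, drug-oxidising genes next to each other in the cluster, also rose, and were named after their values were seen. Cyp2c37 had 0.575, 0.633 and 0 TPM at E16.5 (9, 9 and 0 reads) and 10.3, 2.79 and 27.1 TPM at E18.5 (129, 26 and 201 reads), a log2 fold change of 2.96 ± 0.68 (limma adjusted p = 0.022). Cyp2c54 had 0.330, 0.652 and 0 TPM at E16.5 and 4.05, 1.77 and 7.52 TPM at E18.5 (1.92 ± 0.46, limma adjusted p = 0.0238). Each was above its E16.5 range in every E18.5 library. After median-of-ratios scaling their adjusted p became 0.0513 and 0.0565. The calls of both were lost without E16.5 replicate C and without E18.5 replicate A, and that of Cyp2c54 also without E16.5 replicate A. Windows shared with other genes made up 13.8% of Cyp2c37 and 14.1% of Cyp2c54.

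The abundant members of the cluster were not called. Cyp2c68 had 212, 207 and 230 TPM at E16.5 and 160, 74.6 and 234 TPM at E18.5 (-0.62 ± 0.37, limma adjusted p = 0.229). Cyp2c70, which makes muricholic acids in mouse bile acid synthesis, had 83.4, 97.1 and 103 TPM at E16.5 and 65.8, 28.6 and 139 TPM at E18.5 (-0.54 ± 0.50, adjusted p = 0.415 by limma). For both genes the E18.5 libraries spread on either side of the E16.5 values, with B below all of them and C above. Cyp2c67 had 22.9, 30.8 and 32.0 TPM at E16.5 and 20.8, 12.3 and 23.6 TPM at E18.5, with an overlap between E18.5 replicate C and E16.5 replicate A (-0.60 ± 0.26, limma adjusted p = 0.108). Cyp2c38 had no read in any library, which allows up to 0.122 to 0.257 TPM.

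Within the subfamilies compared, 11 pairs of members had promoters at least 90% identical, and 3 of these pairs had a called member and are shown. The pairs not shown were all of Cyp3a genes. Members without a RefSeq promoter could not be paired, among them the called Cyp2c23, Cyp2c54, Cyp2d22, Cyp4a12a and Cyp4f17. Cyp2c68 and Cyp2c69 are the third pair shown, in which Cyp2c68 was high at both stages and Cyp2c69 rose. The windows (chr19:39741052-39741351 and chr19:39886720-39887019, minus strand, written along the gene) are 91.1% identical, with 19 substitutions and 4 further bases in each that have no partner in the other. Capitals mark these bases.
Cyp2c68: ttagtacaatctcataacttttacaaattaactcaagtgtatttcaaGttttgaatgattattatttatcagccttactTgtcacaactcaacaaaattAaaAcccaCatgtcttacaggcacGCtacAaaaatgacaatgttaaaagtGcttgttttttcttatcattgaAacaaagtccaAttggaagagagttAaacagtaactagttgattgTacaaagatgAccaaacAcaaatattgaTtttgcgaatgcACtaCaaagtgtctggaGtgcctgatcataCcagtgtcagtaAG
Cyp2c69: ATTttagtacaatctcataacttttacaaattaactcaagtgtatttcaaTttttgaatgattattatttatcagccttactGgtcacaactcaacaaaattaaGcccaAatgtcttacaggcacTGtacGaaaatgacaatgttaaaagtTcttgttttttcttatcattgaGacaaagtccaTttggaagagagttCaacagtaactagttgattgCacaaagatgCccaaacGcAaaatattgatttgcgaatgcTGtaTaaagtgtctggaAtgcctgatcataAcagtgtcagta
The level of Cyp2c68 was 55.5, 95.1 and 93.0 times that of Cyp2c69 in the E16.5 libraries and 6.24, 6.49 and 2.92 times in the E18.5 libraries. The letters TATAAA occur in the Cyp2c69 window and not in that of Cyp2c68, the lower and the higher gene of the pair, which is a description of these windows only. Both windows hold GTTAAT, and GCGTG and CCAAT occur in the Cyp2c68 window alone.

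RefSeq promoters were found for 65 of the 80 members, 72 windows in all. In them 5 short motifs were searched on both strands, none of which contains another. TATAAA, the TATA box, was in 40.3% of the member windows and in 13.6% of all 32851 RefSeq windows of the same length. AGGTCA, the half-site of nuclear receptors, was in 27.8% against 16.3%, and GTTAAT, a half-site of HNF1, in 13.9% against 7.10%. CCAAT was in 45.8% against 37.4%, and GCGTG, the core of the aryl hydrocarbon receptor site, in 19.4% against 32.4%. Some members, such as Cyp4f14, have several windows, and 11 pairs of members have promoters at least 90% identical. The member windows are therefore not independent, and these shares are a description with no test.

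The Cyp2d subfamily, drug-oxidising genes that lie together on chromosome 15 (chr15:82370527-82794294), had the highest summed level at E16.5, with 600, 500 and 773 TPM, and 267, 120 and 453 TPM at E18.5. Of its 8 genes 5 were tested, 1 fell (20%, against 5.22% of all genes) and none rose (against 26%). Cyp2d22 fell by 0.53 on the log2 scale (SE 0.13, limma adjusted p = 0.0255), from 91.9, 83.3 and 101 TPM to 69.4, 55.5 and 65.1 TPM. Every E18.5 library was below every E16.5 library. The change was the smallest among the called members, and the call was lost without E16.5 replicate A, E16.5 replicate C, E18.5 replicate A or E18.5 replicate B. Cyp2d26 had 415, 343 and 574 TPM at E16.5 and 155, 50.1 and 321 TPM at E18.5. Its stages did not overlap, yet the E18.5 libraries differed widely among themselves and it was not called (-1.67 ± 0.61, limma adjusted p = 0.0736). Cyp2d10 had 78.4, 62.1 and 78.7 TPM at E16.5 and 30.4, 6.65 and 50.4 TPM at E18.5, with the same separation and the same outcome (-1.67 ± 0.63, limma adjusted p = 0.0803). Both were called lower in the fit without E18.5 replicate C.

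Cyp2e1, the ethanol-oxidising form, had 18.3, 14.9 and 18.8 TPM at E16.5 and 62.0, 19.4 and 77.4 TPM at E18.5. Replicate B stayed just above the E16.5 range and the other E18.5 libraries well above it, and the gene was not called (1.35 ± 0.47, limma adjusted p = 0.0642). Without replicate B it was called, at a log2 fold change of 1.95 (limma adjusted p = 0.012).

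In the other subfamilies of family 2, 8 of 15 genes were tested and 3 rose (37.5%, against 26% of all genes). All 3 were Cyp2j genes, which convert arachidonic acid to epoxides. The Cyp2j cluster on chromosome 4 (chr4:96027534-96664154) holds 8 members, and their sum was 136, 151 and 93.8 TPM at E16.5 and 379, 308 and 281 TPM at E18.5. Cyp2j5 had 82.1, 85.5 and 58.3 TPM at E16.5 and 253, 183 and 181 TPM at E18.5, a mean of 75.3 ± 14.8 against 206 ± 40.7 TPM (SD, n = 3), which was 2.73-fold higher (log2 fold change 1.44 ± 0.20, limma adjusted p = 0.0089). Cyp2j6 had 45.5, 56.0 and 27.2 TPM at E16.5 and 96.9, 104 and 80.7 TPM at E18.5 (1.17 ± 0.26, limma adjusted p = 0.0201). Cyp2j9 had 8.60, 8.95 and 7.36 TPM at E16.5 and 28.2, 19.0 and 18.52 TPM at E18.5 (1.28 ± 0.20, limma adjusted p = 0.0108). In all 3 genes each E18.5 library was above each E16.5 library. Cyp2j5 and Cyp2j9 stayed called in all 14 alternatives. Cyp2j6 was not called after median-of-ratios scaling (0.72, limma adjusted p = 0.0582), without E18.5 replicate A or without E18.5 replicate B. None of the 75-base windows of these 3 genes occurs in another gene. The other 5 Cyp2j genes were below 1 TPM on average.

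Cyp2f2, known for oxidising naphthalene, was not called in the main comparison. It had 1.61, 2.28 and 2.105 TPM at E16.5 and 13.1, 3.29 and 34.5 TPM at E18.5 (2.11 ± 0.69, limma adjusted p = 0.0548). Each E18.5 library was above the E16.5 range, replicate B by the least, and without it the gene was called (2.90, limma adjusted p = 0.0202). Of its exon length, 13.5% overlaps a gene on the opposite strand, and whether the authors' counting used the strand is not given in the sources used here. Cyp2r1, Cyp2s1, Cyp2t4 and Cyp2w1 were tested and not called, with log2 fold changes from -0.71 to 0.87.

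Family 3, the Cyp3a genes that oxidise steroids and many drugs, had 6 tested genes of 9, and none rose or fell. Of all genes tested 31.2% were called. At an unadjusted p under 0.05 the count was 1 (Cyp3a11), and the count model on recovered reads (limma voom) called 2 of 6. Cyp3a16, known as a form of the fetal mouse liver, was the most abundant, with 127, 109 and 154 TPM at E16.5 and 68.8, 36.3 and 126 TPM at E18.5 (-0.91 ± 0.41, limma adjusted p = 0.123). Its E18.5 replicate C lay between the E16.5 libraries and the other E18.5 libraries below them. Cyp3a11, the main adult form, had 26.0, 12.8 and 31.6 TPM at E16.5 and 4.02, 1.04 and 14.9 TPM at E18.5 (-2.07 ± 0.72, limma adjusted p = 0.0638). Replicate C of E18.5 was above replicate B of E16.5, so the stages overlapped. Both genes were called lower without E18.5 replicate C. Cyp3a44 had 21.6, 14.7 and 28.9 TPM at E16.5 and 35.2, 9.27 and 62.0 TPM at E18.5 (0.38 ± 0.63, limma adjusted p = 0.655), and Cyp3a13 had 14.6, 18.3 and 15.4 against 22.0, 15.8 and 24.7 TPM (0.34 ± 0.20, limma adjusted p = 0.213). The direction of both turned under median-of-ratios scaling. The levels of Cyp3a41a and Cyp3a41b are uncertain, since 95.3% and 90.9% of their windows occur in another gene.

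In family 4, 15 of 20 genes were tested, with a median log2 fold change of 0.54. Among them 4 rose (26.7%, against 26% of all genes tested) and none fell (against 5.22%). Of these, 3 were in the Cyp4f cluster on chromosome 17 (chr17:32452723-32947402, 8 members), which hydroxylates leukotrienes and other long chains. Without E18.5 replicate B the log2 fold changes of Cyp4a10, Cyp2c37, Cyp4a14 and Cyp2c69 were larger than that of Cyp4f14. With all 6 libraries Cyp4f14 had the largest of the tested members on the log2(TPM + 1) scale. It had 1.65, 1.65 and 0.469 TPM at E16.5 and 31.4, 34.7 and 20.6 TPM at E18.5, with means of 1.26 ± 0.682 and 28.9 ± 7.37 TPM (SD, n = 3), 23.0-fold higher at E18.5 (log2 fold change 3.75 ± 0.32, limma adjusted p = 0.00435). Cyp4f13 had 30.8, 30.5 and 23.2 TPM at E16.5 and 89.4, 79.0 and 68.9 TPM at E18.5, 2.81-fold higher (1.46 ± 0.16, limma adjusted p = 0.00743). Cyp4f17 had 12.1, 15.4 and 9.85 TPM at E16.5 and 35.1, 31.4 and 30.3 TPM at E18.5 (1.33 ± 0.18, limma adjusted p = 0.0089). The E18.5 libraries of these genes lay close together and clear of the E16.5 libraries. With Cyp2c23, Cyp2j5 and Cyp2j9 they were the 6 members called under every alternative in which they were tested, and at most 0.942% of their windows occur in another gene. The 3 Cyp4f genes were tested in 13 of the 14 alternatives, not by limma voom, since their whole reads could not be recovered.

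Their neighbour Cyp4f15 was not called, with 87.3, 91.9 and 88.5 TPM at E16.5 and 99.2, 81.2 and 83.4 TPM at E18.5 (-0.03 ± 0.12, limma adjusted p = 0.87). After median-of-ratios scaling its log2 fold change was -0.48 (limma adjusted p = 0.0574), and with limma voom on recovered reads it was called lower (-0.47, adjusted p = 0.0427). Cyp4f16 had 17.9, 22.9 and 14.1 TPM at E16.5 and 25.9, 30.5 and 23.7 TPM at E18.5, without overlap and without a call (0.54 ± 0.20, limma adjusted p = 0.0753). The sum of the 9 Cyp4f genes was 153, 165 and 138 TPM at E16.5 and 284, 260 and 228 TPM at E18.5.

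The Cyp4a genes hydroxylate fatty acids and include known targets of the receptor Ppara. They lie with Cyp4b1 and Cyp4x1 on chromosome 4 (chr4:115106323-115647723, 10 members), where 8 were tested and 1 rose (12.5%, against 26% of all genes). Cyp4a12a had 21.1, 17.5 and 14.4 TPM at E16.5 and 43.2, 24.5 and 37.3 TPM at E18.5 (0.93 ± 0.24, limma adjusted p = 0.0288). All E18.5 libraries were above the E16.5 range. Its call was lost after median-of-ratios scaling (0.49, limma adjusted p = 0.218) and without E16.5 replicate B or C or E18.5 replicate A or C, and 40.8% of its windows occur in Cyp4a12b. Cyp4a10 had 2.16, 0.790 and 2.20 TPM at E16.5 and 26.0, 1.95 and 53.0 TPM at E18.5 (2.63 ± 0.99, limma adjusted p = 0.0788). Cyp4a14 had 1.26, 0.345 and 1.01 TPM at E16.5 and 12.8, 1.73 and 36.6 TPM at E18.5 (2.62 ± 0.87, limma adjusted p = 0.0565). In both genes E18.5 replicates A and C were far above E16.5 and replicate B close to it. Without replicate B both were called, Cyp4a10 at 3.86 (limma adjusted p = 0.013) and Cyp4a14 at 3.64 (limma adjusted p = 0.0175). Cyp4a31 had 17.8, 21.2 and 26.1 TPM at E16.5 and 27.6, 11.1 and 31.3 TPM at E18.5 (-0.01 ± 0.37, limma adjusted p = 0.986). Cyp4v3, a fatty acid hydroxylase on chromosome 8, had 20.3, 26.5 and 21.2 TPM at E16.5 and 36.8, 30.9 and 27.6 TPM at E18.5 (0.47 ± 0.16, limma adjusted p = 0.0655).

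**Figure D3:**
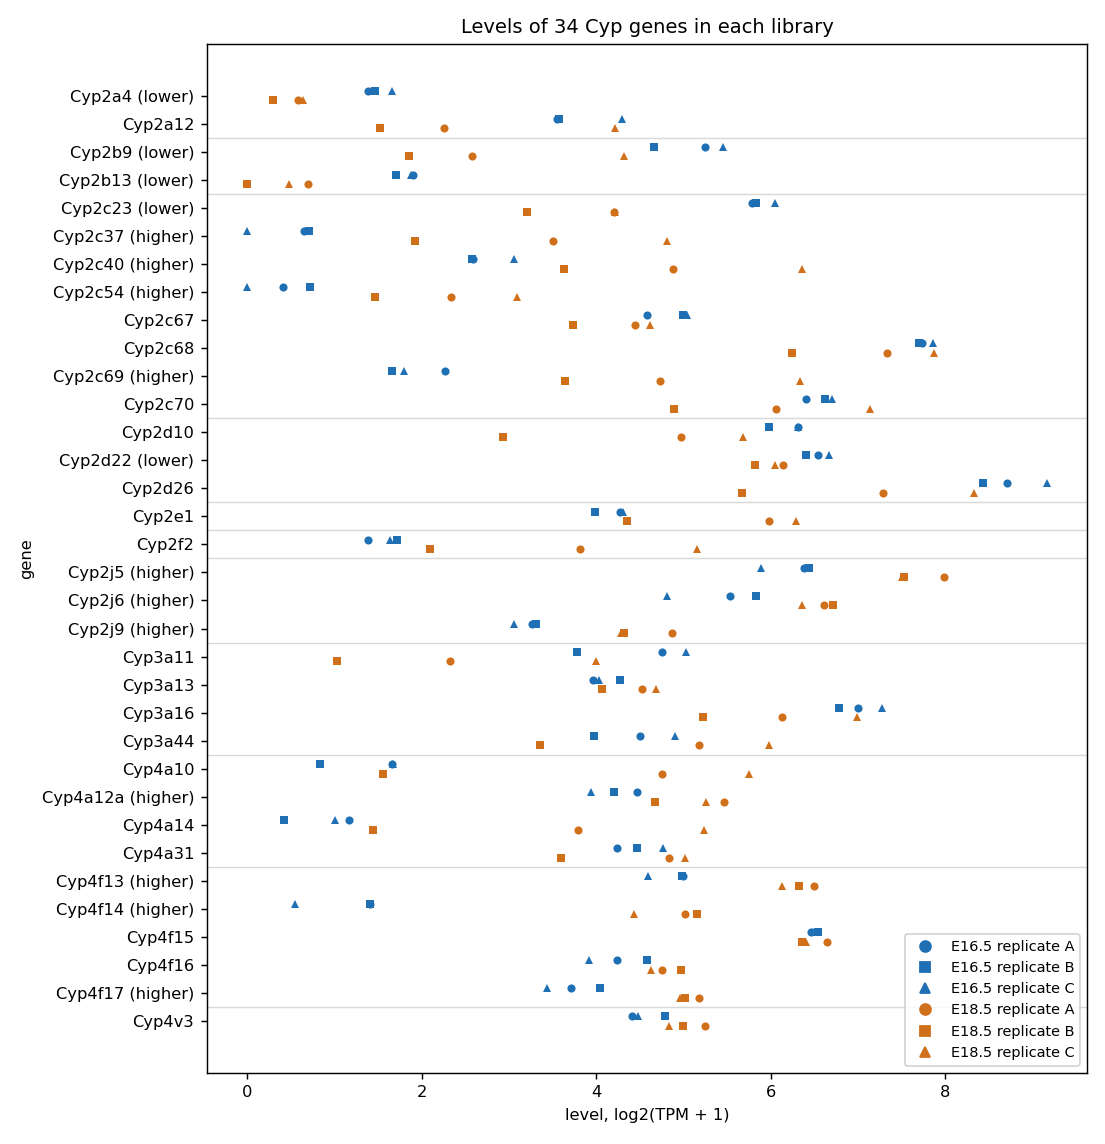
Levels of the 34 members that were named by the rule or called. The horizontal axis is log2(TPM + 1), each row is a gene and each point a library, with E16.5 in blue and E18.5 in orange and circles, squares and triangles for replicates A, B and C. The Cyp4f and Cyp2j points of E18.5 lie close together. Those of many Cyp2c, Cyp2d and Cyp3a genes, and of Cyp4a10 and Cyp4a14, are spread out with replicate B usually lowest. Cyp2d22, Cyp3a13 and Cyp2c67 are less spread, with ratios of the highest to the lowest E18.5 library of 1.25, 1.57 and 1.92.

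The E18.5 libraries did not differ from each other in the same way for all members. Among the 49 tested members, 31 (63.3%) followed the order C above A above B at E18.5, against 12.5% of all genes tested. The order held for 8 of 8 tested Cyp2c genes, 6 of 6 Cyp3a genes and 4 of 4 Cyp2a genes, and for 17 of 20 genes of Cyp2a to Cyp2e in all. It held for 0 of 3 Cyp2j and 0 of 6 Cyp4f genes. The summed hepatoblast markers followed the same order, with 103836 TPM in C, 86369 TPM in A and 42003 TPM in B. The summed cholangiocyte markers followed the opposite order, with 8299, 11962 and 14192 TPM. These orders are over 3 libraries and are given as a description, and the part of the cell composition in them was not tested.

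**Figure D4:**
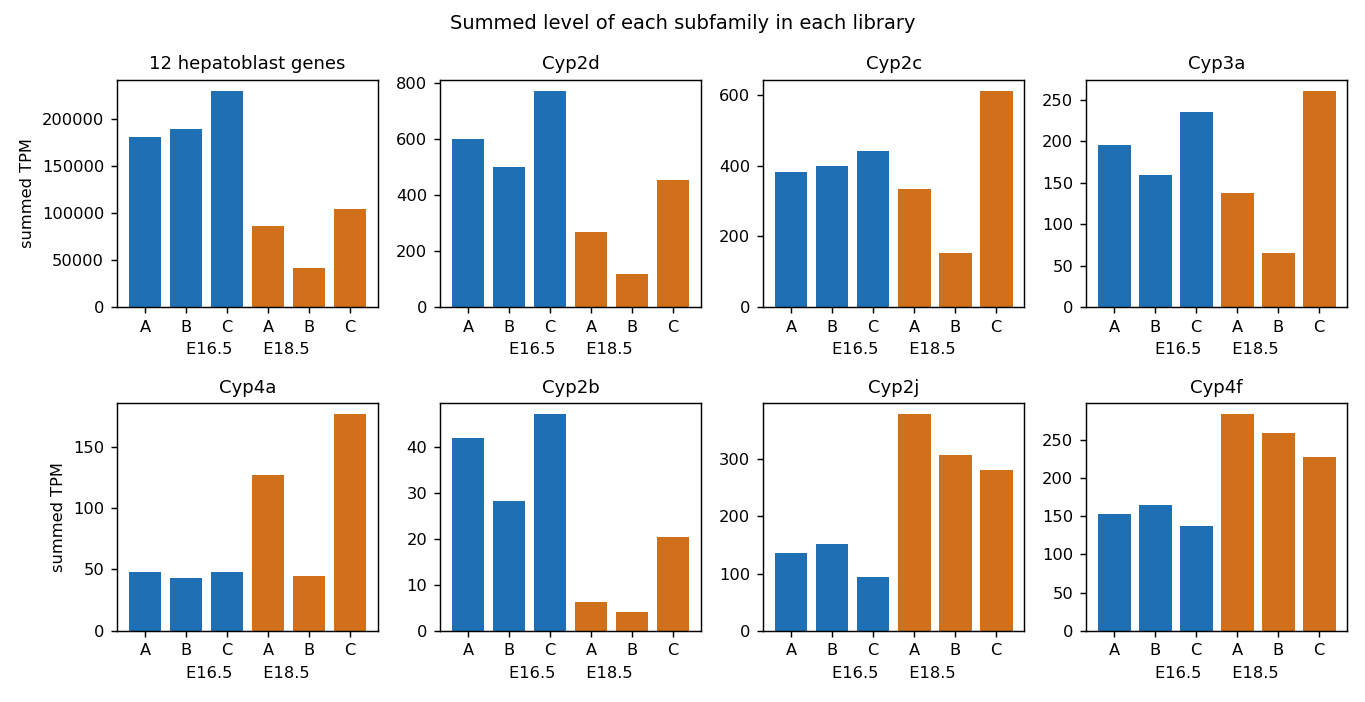
Summed TPM of 12 hepatoblast marker genes and of 7 Cyp subfamilies in each library. Bars start at 0, letters on the horizontal axis are replicates A, B and C of E16.5 (blue) and E18.5 (orange), and each panel has its own vertical scale. The Cyp2c and Cyp3a panels follow the hepatoblast panel in putting E18.5 replicate B lowest and C highest among the E18.5 libraries, and the Cyp2j and Cyp4f panels put A highest and every E18.5 library above E16.5.

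The members were also set against the summed hepatoblast markers, which were 2.59-fold lower at E18.5 on average, so a gene of unchanged TPM would be 2.59-fold higher in this ratio. Per 1000 TPM of those 12 genes, all members together had 9.08, 8.06 and 8.13 TPM at E16.5 and 19.5, 24.6 and 21.5 TPM at E18.5. For Cyp2a to Cyp2e the values were 5.90, 5.09 and 5.73 at E16.5 and 7.95, 7.24 and 11.6 at E18.5. Cyp3a genes had 1.08, 0.839 and 1.02 at E16.5 and 1.59, 1.56 and 2.51 at E18.5. Each of these ratios was higher in every E18.5 library than in any E16.5 library, while the summed TPM of all members was 0.982-fold of its E16.5 mean. The Cyp2d ratios overlapped between the stages, at 3.32, 2.64 and 3.36 against 3.09, 2.85 and 4.37. The Cyp2b ratio was 0.232, 0.148 and 0.205 at E16.5 and 0.0725, 0.0950 and 0.197 at E18.5. Its E18.5 replicate C therefore lay within the E16.5 range, and A and B below it. Cells other than hepatoblasts can also hold the counted transcripts, and these ratios are descriptions with no test.

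The partners of the P450 system were taken as further lists. Of 8 redox partners and membrane helpers, all tested, 1 rose and 3 fell (median log2 fold change 0.07). Of all genes tested 26% rose and 5.22% fell. Cyb5a, the cytochrome that passes electrons to several microsomal P450s, fell from 219, 222 and 260 TPM to 131, 100 and 156 TPM (-0.87 ± 0.18, limma adjusted p = 0.0159). Fdxr and Fdx1 are the reductase and the ferredoxin of mitochondrial P450s, and Fdxr fell (-0.43 ± 0.11, limma adjusted p = 0.0247) while Fdx1 rose (0.79 ± 0.17, limma adjusted p = 0.0196). Cyb5r3, a cytochrome reductase, fell by 0.42 (SE 0.10, limma adjusted p = 0.0246). After median-of-ratios scaling 4 of the 8 were lower (10.4% of all genes) and none higher (6.81%), so the call of Fdx1 depended on the scaling. Without E18.5 replicate A none of the 4 was called, and the calls of Fdxr and Cyb5r3 were also lost without E16.5 replicate A, E16.5 replicate B or E18.5 replicate B, that of Cyb5r3 without E18.5 replicate C too.

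Of 17 receptors and factors known to control Cyp genes, 15 were tested, 5 rose and 1 fell, with a median of 0.41. Of all genes tested 26% rose and 5.22% fell, with a median of 0.42. Nr0b2, a repressor in bile acid signalling, had 3.91, 1.36 and 1.77 TPM at E16.5 and 7.62, 6.22 and 9.14 TPM at E18.5 (1.43 ± 0.33, limma adjusted p = 0.0212). Onecut1, a hepatic and biliary factor, went from 65.3, 72.7 and 35.6 TPM to 158, 158 and 121 TPM (1.37 ± 0.27, limma adjusted p = 0.0154). Foxa2, a pioneer factor of the liver lineage, went from 29.3, 29.0 and 19.3 TPM to 59.5, 55.6 and 46.2 TPM (1.04 ± 0.19, limma adjusted p = 0.0139). Hnf4a, the hepatocyte nuclear factor, fell from 252, 247 and 255 TPM to 173, 126 and 197 TPM (-0.62 ± 0.17, limma adjusted p = 0.033). Nr3c1, the glucocorticoid receptor, rose by 0.55 (SE 0.11, limma adjusted p = 0.0165), and Arnt, the partner of the aryl hydrocarbon receptor, was the remaining gene that rose. Under median-of-ratios scaling only Onecut1 and Foxa2 were still higher (6.81% of all genes), and 3 genes of the list were lower (10.4% of all genes). Without E18.5 replicate A none of the 6 calls was kept. The call of Nr0b2 was also lost without E16.5 replicate C or E18.5 replicate C, and that of Hnf4a was kept without E18.5 replicate C alone. Onecut1 also stands in the cholangiocyte list and Hnf4a in the hepatoblast list.

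Of 13 genes of haem synthesis and breakdown, all tested, 1 rose and 1 fell (26% and 5.22% of all genes), with a median of -0.17. Hmox2, a haem oxygenase, was the gene that rose (0.42 ± 0.13, limma adjusted p = 0.0441). Under median-of-ratios scaling 7 of the 13 were lower (10.4% of all genes) and none higher (6.81%). The call of Hmox2 lay near the threshold and was kept in none of the fits that left out a library. Of 20 P450 genes of family 5 and above, 13 were tested, 2 rose and 2 fell (26% and 5.22% of all genes), with a median of 0.20. Cyp46a1, a cholesterol hydroxylase, rose from 1.81, 1.52 and 0.954 TPM to 6.67, 6.43 and 5.77 TPM (1.60 ± 0.24, limma adjusted p = 0.0104), and Cyp20a1 rose by 0.47 (SE 0.11, limma adjusted p = 0.0229). Cyp51, the sterol demethylase of cholesterol synthesis, fell by 0.54 (SE 0.14, limma adjusted p = 0.0288). Tbxas1, thromboxane synthase, which platelets and their precursors express, fell from 33.7, 18.9 and 51.8 TPM to 3.81, 9.08 and 5.39 TPM (-2.29 ± 0.41, limma adjusted p = 0.0132), beside the fall of all 8 megakaryocyte markers. Cyp46a1 and Tbxas1 stayed called in each fit without 1 library, Cyp51 lost its call without E16.5 replicate B or C or E18.5 replicate A or B, and Cyp20a1 without E16.5 replicate B or any 1 of the E18.5 libraries.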

How the data were processed

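The authors deposited 1 table of TPM for the 6 libraries, prepared with a stranded total RNA kit. The tools named in the submitters' processing notes are FastQC 0.11.7, HISAT2 2.1.0, Bowtie and HTSeq 0.5.4p3, with the builds mm10 and GRCm38. The strand setting of the counting and the treatment of reads matching several genes are not given in the sources used here. Both act on near-identical Cyp genes. Identifiers were matched to GENCODE vM21 (52403 of 52550). The 21 pseudogenes and antisense genes, and Cyp2ab1, whose subfamily has 2 letters, were left out.

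Log2(TPM + 1) was fitted with limma 3.58.1 (trend) in R 4.3.3 over all genes averaging 1 TPM or more, and the script was tested on simulated data. Whole reads were recovered from TPM and exon length for 62 members, and intervals and limits cover counting error only. Up to 30 called or abundant (at least 5 TPM) members were named, those with the highest means. Members, gene lists and tests were chosen with earlier results of these data known. The 14 alternatives varied the pseudocount (0.1), the filter (none, 5 TPM), the scaling, the variance trend, a replicate block, the unit (recovered reads) and the libraries. An exact permutation test of 3 against 3 libraries cannot go below p = 0.1 and was not used for calls. The values of 1 gene of the haem list are not reported here.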

Additional observations from a re-analysis of the deposited data

How the results depend on the processing

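Of 14 alternatives, chiefly the scaling and the choice of libraries changed the counts. The members called higher numbered 11, and 6 with median-of-ratios scaling, 7 with quantile normalization and 3 (of 37 tested) with limma voom on recovered reads; leaving out 1 library gave 5 to 15, the fewest without E18.5 replicate A and the most without E18.5 replicate B. The members called lower numbered 5, and 3 with no filter, 3 with a mean of at least 5 TPM and 8 with voom. Leaving out 1 library gave 1 to 9, the most without E18.5 replicate C. Whole reads could not be recovered for Cyp2c54, Cyp2c69, Cyp4f13, Cyp4f14 and Cyp4f17, called higher in the main comparison, or for Cyp2d22, called lower. These members were therefore not among the 37 fitted by voom. For all genes the called number was 7000, 3863 with median-of-ratios scaling and 3796 with quantile normalization. It was 1472 without E18.5 replicate A and 2917 without E18.5 replicate B. Of the called genes 83.3% were higher on TPM as deposited, 39.6% with median-of-ratios scaling and 50.47% with quantile normalization. Called genes of redox partners numbered 4, and 2 without the variance trend; those of haem genes numbered 2, and 7 with median-of-ratios scaling, 4 with quantile normalization, 5 with voom, and 0 with no filter or without the trend. Leaving out 1 library gave 0 to 4 redox partners, 0 to 6 regulators, 0 to 2 haem genes and 2 to 4 P450 genes of family 5 and above. Fewer libraries were fitted in these, and otherwise the cause was not tested.

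Among the 34 members named or called, the direction turned only for members that were not called. These were Cyp3a13 (-0.093 with median-of-ratios scaling, -0.043 with quantile normalization and -0.11 with voom) and Cyp3a44 (-0.052 with median-of-ratios scaling and -0.13 with voom), and, where 1 library was left out, Cyp3a44 (-0.19 without E18.5 replicate C to 1.12 without B), Cyp2c70 (-1.10 without E18.5 replicate C to 0.025 without B), Cyp4a31 (-0.28 without E18.5 replicate C to 0.43 without B, and 0.13 without E16.5 replicate C) and Cyp4f15 (-0.12 without E18.5 replicate A to 0.028 without B). Of the other tested members, Cyp4a12b (to -0.30), Cyp4b1 (to -0.12) and Cyp4f40 (to 0.22), also not called, turned under 5, 3 and 1 alternatives. Of 463 named-member comparisons with an alternative, 378 kept direction and side of the threshold.

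Replicate letters occur at both stages, but the libraries share only a letter: deviations of same-letter libraries from their stage means correlated at -0.04 for A, 0.08 for B and 0.14 for C. With the letter as a replicate block, 16 members were called higher and 6 lower, 44.9% of those tested, and 7314 genes in all, 32.6%. The filter on mean TPM left out 31 of 80 members, and 79 were fitted with no filter.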

Other observations

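Among the 31 members below the filter of the main comparison, 8 had TPM that did not overlap between the stages. For all genes below the filter this share was not computed, and for all genes tested it was 53.3%. The 8 members were picked out after their values were seen. Those higher in every E18.5 library were Cyp1b1, Cyp2c50 (0.200, 0.0439 and 0 TPM at E16.5 and 1.60, 0.201 and 1.43 TPM at E18.5), Cyp2j11, Cyp4a29 and Cyp4f18. Cyp4a29, a fatty acid hydroxylase gene beside Cyp4a12a, had no read in any E16.5 library and 2, 5 and 7 reads at E18.5. Those lower in every E18.5 library were Cyp2b10, Cyp2c65 (0.786, 0.532 and 0.260 TPM against 0.152, 0.203 and 0.255 TPM) and Cyp4f39 (1.17, 1.04 and 0.549 TPM against 0.274, 0.122 and 0.308 TPM). In the fit with no filter none of the 8 was called, with limma adjusted p from 0.101 for Cyp4f18 to 0.326 for Cyp2c65.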
